A study of Mus musculus with 4 samples.

Results

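Apobec3 (ENSMUSG00000009585), the only APOBEC3 gene of the mouse, was followed across 2 genotypes and 2 culture states of splenic B cells. It is 1 gene of 41342 named genes in the gene table, and 17 of the 88198 transcripts in the transcript tables belong to it. It was chosen by its gene counts in these same libraries, which earlier results showed to differ between the genotypes after stimulation, so those counts are given as a description, with no test. The 4 libraries were total RNA depleted of ribosomal RNA, 1 library per group, from CD43-depleted splenocytes of mice on a 129 background. ΔleftPAL mice lack the hs3a-IRIS-hs1,2 fragment of the immunoglobulin heavy chain (IgH) locus, which is the left arm of the palindrome in its 3' regulatory region. ΔIRIS mice are labelled as lacking IRIS, the inverted repeat between the enhancers hs3a and hs1,2. Per the study's text their allele carries that left arm deletion with both enhancers put back, hs3a in the reverse orientation. Both genotypes therefore lack IRIS, and ΔIRIS keeps the 2 enhancers that ΔleftPAL lacks, with hs3a turned round. Cells were taken fresh (resting) or after 48 h of culture with 5 μg per ml of lipopolysaccharide (LPS), a bacterial cell wall component that activates B cells, and wt libraries were not analysed here. The labels describe each library as a pool of B cells from 4 animals, whereas the study's methods and a figure legend describe the pooling differently. With 1 library per group no difference below has a replicate check, and genotype, pool, culture and library cannot be told apart.

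Apobec3 encodes a cytidine deaminase that is packaged into retroviral particles and limits the next round of infection, in part by deaminating newly made viral DNA. It belongs to a family of deaminases that act on cytidine in DNA or RNA. The gene responds to interferon in many cell types, and mouse strains carry alleles that differ in level and in the use of exon 5. C57BL/6 cells mainly make transcripts without that exon. C57BL/6 is the strain of the reference genome and not the 129 background stated for these mice. The study's methods also state that the founding chimeras were mated with C57BL/6 animals. Whether C57BL/6 segments remained at Apobec3, or differed between the genotypes, was not tested.

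Apobec3 lies on the plus strand at chr15:79891659-79915906 (GRCm38/mm10), and its 12 merged exons cover 6083 bases. Exon 5 of the transcript ENSMUST00000109620 lies at chr15:79899020-79899118 and is 99 bases long, which is 33 codons with no remainder, so that leaving it out keeps the reading frame. It is shown because the transcripts below are grouped by whether they hold it or skip it. The capitals mark exon 5, and the lower case letters are the adjoining ends of exons 4 and 6 (GENCODE M21 transcripts, GRCm38). The second line joins exon 4 to exon 6.
Apobec3 exon 5 with flanks: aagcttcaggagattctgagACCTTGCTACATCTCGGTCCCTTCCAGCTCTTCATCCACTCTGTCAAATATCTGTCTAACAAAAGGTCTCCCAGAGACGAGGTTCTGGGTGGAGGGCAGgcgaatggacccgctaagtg
Apobec3 exon 4 joined to exon 6: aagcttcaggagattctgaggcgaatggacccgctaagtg

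Transcripts of Apobec3 start at several places, and 9 of the 17 start at or close to exon 1. The 250 bases upstream of that start, chr15:79892158-79892407, are shown because the gene is compared below with interferon-induced genes. Both strands were searched for TTTC, any 2 bases and TTTC in a row, a core of the interferon response element, and for GGGA, any base and TTTCC in a row, a kappa B motif. The capitals mark the single match to the first, at position -140 from the start (promoters from RefSeq, GRCm38.p6).
Apobec3 promoter 1: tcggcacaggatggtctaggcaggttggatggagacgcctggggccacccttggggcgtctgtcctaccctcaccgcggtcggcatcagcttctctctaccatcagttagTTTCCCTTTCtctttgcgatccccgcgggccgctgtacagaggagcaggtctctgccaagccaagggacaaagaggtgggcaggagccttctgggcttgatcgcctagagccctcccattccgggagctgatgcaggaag
The search covered the whole window that the RefSeq set gives for a promoter, of which the 250 bases upstream of the start are printed. In that set, 3.44% of 32851 promoter windows held the first motif and 0.411% the second. The kappa B letters were in neither Apobec3 window, and the interferon response core was absent from the window of the second start, which begins inside the first intron.

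The libraries held 23615496, 27777790, 28707002 and 29776108 counts on named genes in the order resting ΔleftPAL, LPS ΔleftPAL, resting ΔIRIS and LPS ΔIRIS, the order used throughout. Counts were scaled for library size and composition with edgeR's TMM factors and are given as CPM, and the comparisons use the 11286 genes that averaged 50 counts or more per library. All 9 B cell markers were detected, with summed levels of 5203, 2659, 4303 and 2694 CPM. Erythroid markers summed to 41310 and 28660 CPM in the resting libraries and to 58.2 and 123.7 CPM after LPS. The 7 myeloid markers summed to 361 and 474 CPM at rest and to 14.1 and 19.99 CPM after LPS. In bulk RNA, fewer cells of a type and less RNA per cell cannot be told apart.

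Apobec3 was the same order of size in 3 libraries and lower in LPS ΔleftPAL. Its gene counts were 4403 in resting ΔleftPAL, 2007 in LPS ΔleftPAL, 4659 in resting ΔIRIS and 4926 in LPS ΔIRIS. These are 180.3 CPM (exact 95% Poisson interval 175.0 to 185.7), 74.5 CPM (71.3 to 77.8), 160.3 CPM (155.7 to 164.9) and 168 CPM (163.4 to 172.8). The intervals cover counting error only, and because PCR copies are not independent molecules they are too narrow even for that. From low to high the order was LPS ΔleftPAL, resting ΔIRIS, LPS ΔIRIS and resting ΔleftPAL. The intervals of resting and LPS ΔIRIS overlapped, and those of the other neighbours in that order did not. By level Apobec3 ranked 540th, 2179th, 747th and 825th of the 11286 genes.

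**Figure D1:**
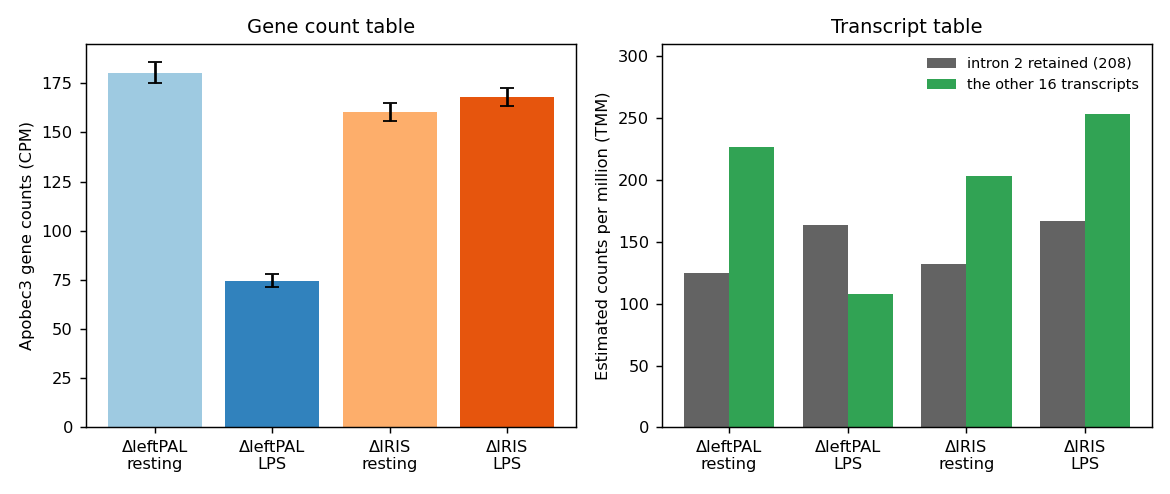
Left, Apobec3 gene counts in CPM in each library, with bars from 0 and exact 95% Poisson intervals; LPS ΔleftPAL stands at 74.5 CPM and the others between 160.3 and 180.3 CPM. Right, kallisto's estimated counts, scaled like CPM, for the transcript that retains intron 2 and for the other 16 transcripts together; the first was 125.1 to 167.2 in all 4 libraries and the second was lowest, at 108.0, in LPS ΔleftPAL.

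Between the genotypes after LPS, Apobec3 was 2.26-fold higher in ΔIRIS, a log2 ratio of 1.17 (95% Clopper-Pearson interval of the counts 1.10 to 1.25). In that comparison 1.98% of the genes were at least 2-fold apart, 0.567% higher and 1.41% lower in ΔIRIS. Apobec3 was the 145th by size of the ratio and the 35th among those higher in ΔIRIS, and 1.28% of the genes were at least as far apart. These places describe a gene chosen for that ratio. At rest the ratio had the opposite sign and was small, with Apobec3 1.12-fold lower in ΔIRIS (log2 ratio -0.17, -0.23 to -0.11), and 58.4% of the genes were at least as far apart. The median log2 ratio of all genes was 0.026 after LPS and 0.00019 at rest.

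Within genotypes, Apobec3 was 2.42-fold lower after LPS in ΔleftPAL (log2 ratio -1.27, -1.35 to -1.20). LPS moved many genes, and 35.6% of the genes were at least 2-fold apart in ΔleftPAL and 38.9% in ΔIRIS. In ΔIRIS the Apobec3 level after LPS was 1.05-fold that at rest (log2 ratio 0.069, 0.010 to 0.13), and 94.7% of the genes were at least as far apart. The sign of this last value turned with the scaling, to -0.090 with upper quartile factors. The difference between the LPS responses of the genotypes was 1.34 on the log2 scale (counting interval 1.25 to 1.44), which repeats the 2 genotype ratios, since the same 4 libraries enter.

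**Figure D2:**
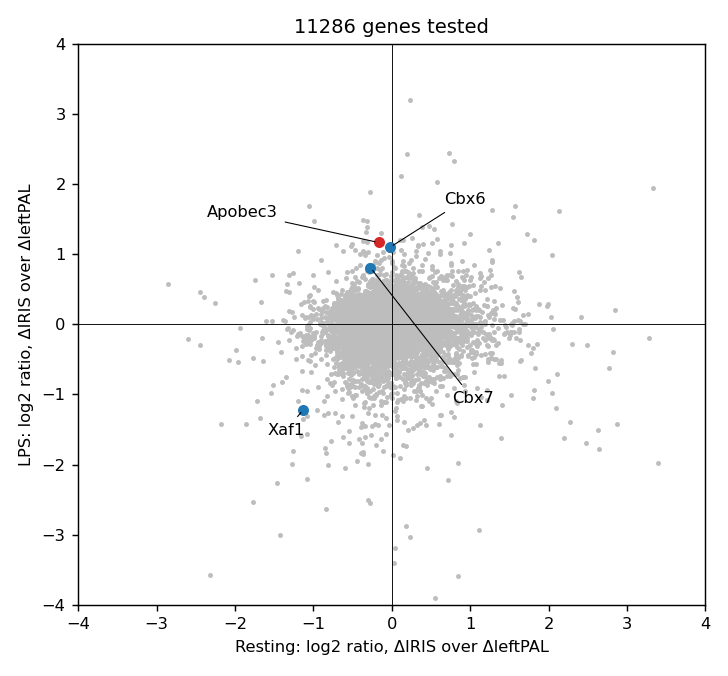
Log2 ratio of ΔIRIS over ΔleftPAL at rest (x axis) against that after LPS (y axis), from log2(CPM + 0.5), for the 11286 genes, of which 11 lie outside the axes. Apobec3 and its upstream neighbour Cbx6 sit near 0 at rest and above 1 after LPS, whereas Xaf1, an interferon-induced gene, is below -1 on both axes.

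The transcript tables gave the same order of the genotypes after LPS with smaller ratios. These tables were made by a second tool, kallisto, and were normalized separately from the gene counts. Summed over the 17 transcripts, the estimated counts were 6829, 5353, 7571 and 8568, and TPM, a level per length, was 398, 303, 380 and 363. The log2 ratio of ΔIRIS over ΔleftPAL after LPS was 0.63 by estimated counts and 0.26 by TPM, against 1.17 by gene counts. The log2 ratio of LPS over rest in ΔleftPAL was -0.37 by estimated counts and -0.39 by TPM, against -1.27.

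1 transcript accounted for most of that gap. ENSMUST00000175849, here called the retained intron transcript, is in the deposited tables a model of 739 bases that holds exons 1 and 2 and 470 bases of intron 2. GENCODE M21 has a longer model of it, 1693 bases, which reaches further into the intron, and its structure and shared sequence are given here over the deposited span. It had 2427, 3225, 2988 and 3407 estimated counts. Its TPM was 231, 234, 232 and 221, so its level per length barely differed between the libraries. It made up 60.2% of the estimated counts of the gene in LPS ΔleftPAL and 35.5% to 39.8% in the other libraries. The other 16 transcripts together had 4402, 2129, 4583 and 5160 estimated counts, with LPS ΔleftPAL again the lowest. Without the retained intron transcript the log2 ratio of the genotypes after LPS was 1.23 by estimated counts and 1.05 by TPM, a choice made after its values were seen.

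Much of the sequence of this transcript occurs elsewhere. Of its 709 runs of 31 bases 343 (48.4%) also occur in transcripts of 14 other genes in GENCODE M21. In the intron 2 stretch 252 of 470 runs (53.6%) do so, in 13 other genes, among them Cep85, Cnbd2 and Snx6. Sharing was not limited to this transcript. Over the other 16 the share of runs went from 0 to 61.8%, highest in ENSMUST00000176823, all of it with D730005E14Rik, and it was 0.442% in ENSMUST00000023054. Gene counts of Apobec3 were 0.645, 0.375, 0.615 and 0.575 of the summed estimated counts, and 1.00, 0.943, 1.02 and 0.955 of the sum without the retained intron transcript. The median of that ratio was 0.985 to 0.988 over the 9624 to 10277 genes per library with at least 100 estimated counts. Whether reads of other genes entered the estimate of the retained intron transcript was not tested.

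**Figure D3:**
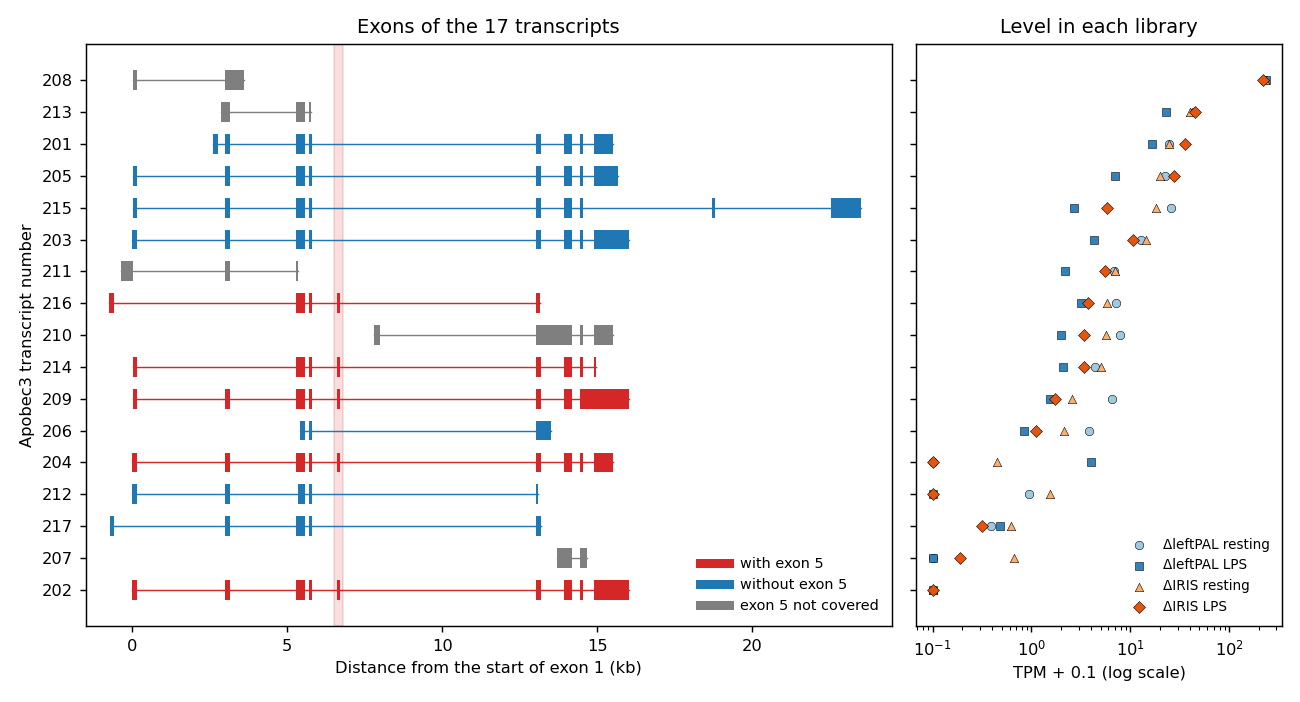
Left, exons of the 17 Apobec3 transcripts as distance in kb from the start of exon 1, coloured by whether they hold exon 5 (5 transcripts), skip it (7) or do not cover it (5), with the shaded band at exon 5. Right, TPM + 0.1 of each transcript in the 4 libraries on a log axis; the top transcript, which retains intron 2, has TPM of 221 to 234 in all libraries, while ENSMUST00000023054, the third row from the top, has 16.5 in LPS ΔleftPAL and 35.5 in LPS ΔIRIS.

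The transcripts without exon 5, the form whose join is printed above, made up most of the estimated counts outside the retained intron transcript, and as a group they differed between the genotypes after LPS. The 7 transcripts that skip the exon had 3189, 1386, 3462 and 4072 estimated counts, lowest in LPS ΔleftPAL. Their log2 ratio of ΔIRIS over ΔleftPAL was 1.51 after LPS and -0.10 at rest by estimated counts, and 1.36 and -0.16 by TPM. The 5 transcripts that hold exon 5 had 487, 364, 362 and 274 estimated counts. Their log2 ratio after LPS was -0.46 by estimated counts and -0.28 by TPM, but this sign rested on ENSMUST00000175714 alone, which had 174 estimated counts in LPS ΔleftPAL and 0 in LPS ΔIRIS. Without it, a choice made after its values were seen, the sums were 487, 190, 348 and 274 and the ratio was 0.48 by estimated counts and 0.40 by TPM. At rest the ratio was -0.65 by estimated counts and -0.40 by TPM, and -0.71 and -0.44 without that transcript. By estimated counts at rest ENSMUST00000176325 had -1.32, ENSMUST00000177350 -0.24 and ENSMUST00000177006 0.28. The other 3 detected transcripts with the exon were each higher in LPS ΔIRIS, with log2 ratios of 0.30 to 0.84. The 4 transcripts that do not cover the exon, the retained intron transcript aside, had 726, 379, 759 and 815 estimated counts and a ratio of 1.06. Transcripts with exon 5 were 13.3%, 20.8%, 9.48% and 6.30% of the estimated counts that bear on the exon, and by TPM 16.5%, 24.9%, 14.3% and 9.62%. Without ENSMUST00000175714 they were 13.3%, 12.1%, 9.13% and 6.30% by estimated counts and 16.5%, 17.2%, 14.0% and 9.62% by TPM. LPS ΔIRIS had the lowest share each way, whereas the top place of LPS ΔleftPAL was lost by estimated counts. The division of reads among transcripts is a model estimate from reads that most of them share, and it has no counting interval here.

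Single transcripts differed in their patterns. ENSMUST00000023054, which begins at the second start and skips exon 5, had 794, 692, 966 and 1673 estimated counts, highest in LPS ΔIRIS, with log2 ratios of LPS over rest of -0.22 in ΔleftPAL and 0.94 in ΔIRIS by estimated counts and of -0.58 and 0.52 by TPM. ENSMUST00000175752, from the first start, had 780, 314, 842 and 1392 estimated counts and was likewise highest in LPS ΔIRIS. The 8 transcripts of the first start other than the retained intron transcript had 2762, 998, 2748 and 2595, with a log2 ratio of LPS over rest of -1.49 in ΔleftPAL and 0.065 in ΔIRIS by estimated counts and of -1.79 and -0.34 by TPM, so that the sign in ΔIRIS turned with the unit. ENSMUST00000177098, whose end overlaps the neighbouring gene Cbx7 by 100 bases, had 1019, 133, 872 and 331, so that it was lower after LPS in both genotypes. Of its runs of 31 bases 7.06% occur in transcripts of Cbx7 or D730005E14Rik, and the strand setting of the transcript estimates is not given in the sources used here. ENSMUST00000175714 had 0, 174, 14.6 and 0 estimated counts, and ENSMUST00000109620, the transcript whose exon 5 is printed above, was listed at 0 in every library.

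The genes on both sides of Apobec3 also differed between the LPS libraries. Cbx6 and Cbx7 encode chromobox proteins of the Polycomb group. Cbx6 (chr15:79823896-79834688, minus strand) lies 57.0 kb upstream and had 384, 262, 450 and 628 counts. Its log2 ratio of ΔIRIS over ΔleftPAL was 1.14 after LPS (0.93 to 1.35) and -0.022 at rest. Cbx7 (chr15:79915807-79971119, minus strand) overlaps the end of Apobec3 antisense by 100 exon bases and had 2361, 520, 2323 and 1003 counts. Its log2 ratio was 0.83 after LPS (0.67 to 0.98) and -0.27 at rest, and it was lower after LPS in both genotypes (-2.32 in ΔleftPAL and -1.22 in ΔIRIS). The stated gene counting used strand, but with the setting for the opposite orientation to that of the stated kit. Which strand the deposited counts hold was not tested. Reads in the 100 shared bases may therefore belong to either gene.

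Of 36 genes within 500 kb of Apobec3, 19 averaged 50 counts or more. From here on log2 ratios of genes in lists are of CPM + 0.5. After LPS 1 of the 19, Cbx6, was at least 2-fold higher in ΔIRIS and none was lower, where 0.567% and 1.41% of all genes were, and at rest none was at least 2-fold apart, where 2.85% of all genes were (1.83% higher and 1.02% lower in ΔIRIS). The neighbours' median log2 ratio was 0.11 after LPS and -0.04 at rest. Gm16576 (-0.77), Tab1 (-0.67) and Atf4 (0.61) were at least 1.5-fold apart at rest.

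**Figure D4:**
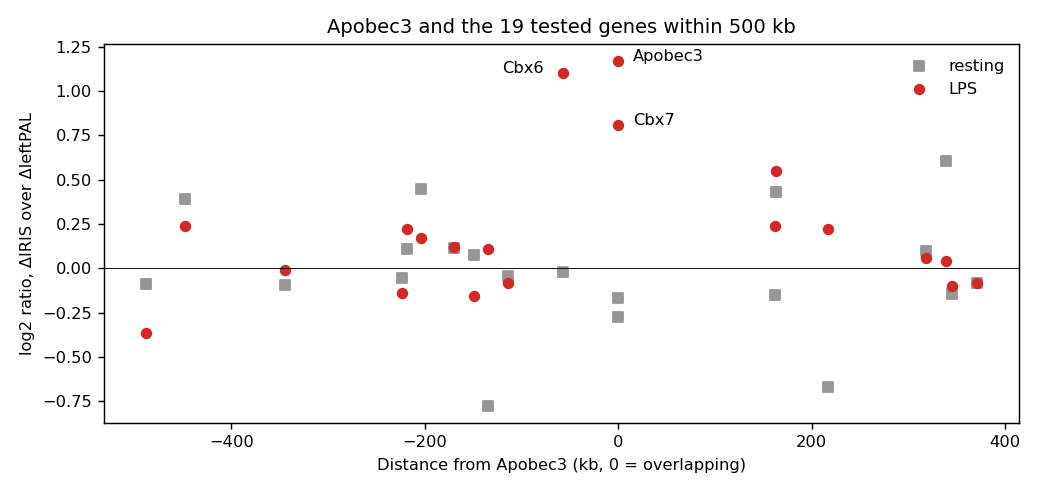
Log2 ratio of ΔIRIS over ΔleftPAL for Apobec3 and the 19 genes within 500 kb against distance from Apobec3 in kb, at rest (squares) and after LPS (circles). Apobec3 (1.17), Cbx6 (1.10) and Cbx7 (0.81) are the highest after LPS, and none of the 3 is above 0 at rest.

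Apobec3 is considered next beside other deaminases. Apobec1, the cytidine deaminase that edits messenger RNA, had 1011, 1255, 1278 and 1121 counts, with log2 ratios between the genotypes of 0.086 at rest and -0.28 after LPS. Of 11 other deaminase genes 7 averaged 50 counts or more. None of the 7 was at least 2-fold apart between the genotypes, where 2.85% of all genes were at rest and 1.98% after LPS, and their median was -0.42 at rest and -0.013 after LPS. Within each genotype none of the 7 was at least 2-fold lower after LPS, where 15.5% of all genes were in ΔleftPAL and 17.3% in ΔIRIS. At least 2-fold higher were 3 of the 7 in each genotype, against 20.1% and 21.6% of all genes. In ΔleftPAL these were Adat2, which edits transfer RNA, with 87, 329, 158 and 284 counts, Ada, the adenosine deaminase, with 206, 819, 164 and 864, and Dctd, the deoxycytidylate deaminase, with 60, 227, 37 and 305. In ΔIRIS Adat1, which also edits transfer RNA and had 110, 204, 82 and 232 counts, stood in place of Adat2.

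Of 24 other genes that act against retroviruses and retroelements, 23 had enough counts. None was at least 2-fold apart between the genotypes after LPS, where 1.98% of all genes were, and their median was 0.066. The nearest was Serinc3, a membrane protein that lowers the infectivity of retroviral particles, with 18614, 5642, 17530 and 12260 counts. Its log2 ratio was 1.00 after LPS, just under 2-fold, and its LPS over rest ratios were -1.86 in ΔleftPAL and -0.53 in ΔIRIS. Like Apobec3 it was lowest in LPS ΔleftPAL, though it was lower after LPS in ΔIRIS too. Samhd1, which depletes the nucleotides used for reverse transcription, had 6895, 3276, 7334 and 3612 counts and was lower after LPS by a similar ratio in both genotypes (-1.21 and -1.03). Bst2, which tethers budding particles, had 694, 596, 466 and 717 counts, with ratios between the genotypes of -0.81 at rest and 0.14 after LPS. At rest the interferon-induced GTPases Mx1 (-1.37) and Mx2 (-1.19) were the 2 members at least 2-fold lower in ΔIRIS, where 1.02% of all genes were. A resting ratio below 0 was held by 20 of the 23 (median -0.29), where the median over all genes was 0.00019. Within ΔleftPAL 5 of the 23 were at least 2-fold higher after LPS and 8 lower, and within ΔIRIS 6 and 4. Of all genes 20.1% were higher and 15.5% lower in ΔleftPAL and 21.6% and 17.3% in ΔIRIS, so that most of these counts lay near the share over all genes. The list's lowest value in ΔleftPAL was that of Ifitm3, which blocks viral entry, at -3.21, with 337, 28, 326 and 61 counts.

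Many interferon-induced genes were lower in ΔIRIS at rest, where the Apobec3 libraries were 1.12-fold apart. Of 33 genes of interferon signalling and response, all with enough counts, 15 were at least 2-fold lower in resting ΔIRIS and none was higher. Of all genes 1.02% were lower and 1.83% higher. The median log2 ratio of the 33 was -0.93, against -0.17 for Apobec3. Irf7, the transcription factor that amplifies interferon production, had 2830, 619, 1166 and 364 counts (-1.52 at rest and -0.86 after LPS). Ifit3 had 1782, 322, 456 and 121 counts (-2.18), and Usp18, which restrains interferon signalling, had 757, 201, 224 and 210 (-1.94). Between resting ΔleftPAL and resting ΔIRIS, plasma cell markers summed to 364 and 693 CPM and dendritic cell markers to 52.8 and 86.0. T cell markers summed to 50.1 and 43.7 CPM and NK cell markers to 7.49 and 6.43. The part of these differences in the interferon values was not tested.

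After LPS the same list had a median of -0.063, with 2 genes, Ifit3 (-1.43) and Xaf1 (-1.22), at least 2-fold lower in ΔIRIS and none higher, where 1.41% of all genes were lower and 0.567% higher. Xaf1 had a ratio of -1.13 at rest. The list's highest ratio after LPS was 0.64, that of Ifi44, below the 1.17 for which Apobec3 was chosen. In ΔleftPAL 14 of the 33 were at least 2-fold lower after LPS and 4 higher (median -0.72), and in ΔIRIS 8 and 4 (median -0.44), where 15.5% and 17.3% of all genes were lower and 20.1% and 21.6% higher. Rsad2, the antiviral enzyme viperin, had 6654, 56, 6030 and 76 counts, low after LPS in both genotypes, while the RNA sensor Ifih1 had 666, 2529, 658 and 2723, high after LPS in both. Oas1a, which makes the activator of the ribonuclease RNase L, had 847, 283, 389 and 467. As for Apobec3 its lowest library was LPS ΔleftPAL, but its resting libraries differed too (-1.34).

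**Figure D5:**
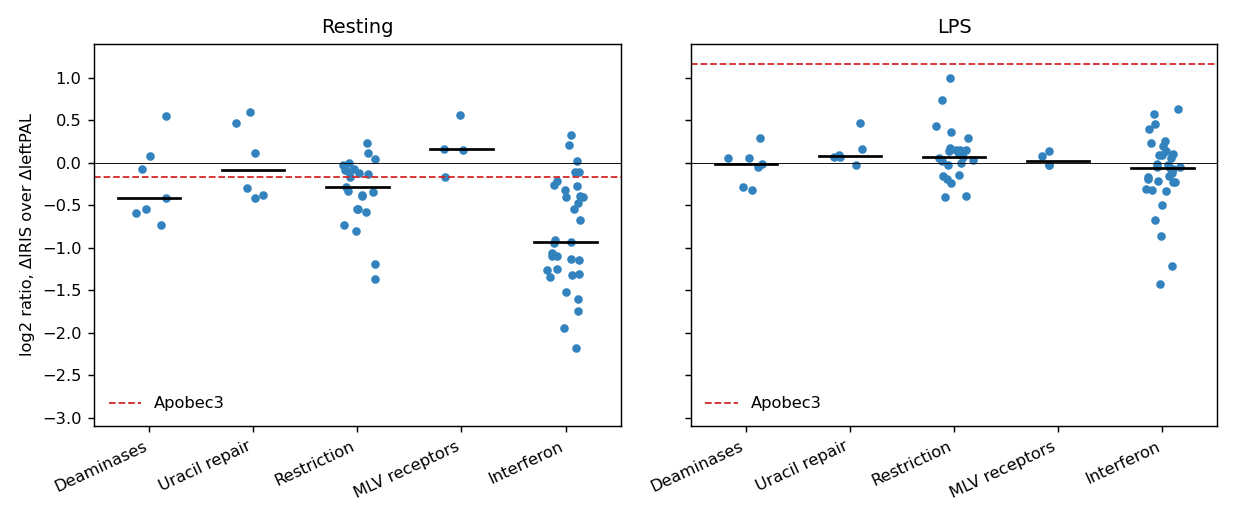
Log2 ratio of ΔIRIS over ΔleftPAL at rest (left) and after LPS (right), 1 point per gene of the 5 lists, with black bars at the medians and a dashed line at Apobec3 (-0.17 and 1.17). The interferon list has its median at -0.93 at rest and -0.063 after LPS. No listed gene reaches the Apobec3 line after LPS, but Apobec3 was chosen for that ratio. It was 35th among those higher in ΔIRIS, of 11286 genes, so nothing about the lists is read from this.

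The 10 genes whose pattern over the 4 libraries was most like that of Apobec3 were found by the Euclidean distance between log2(CPM + 0.5) values centred on each gene's mean, among 11113 genes. They were Mgst2 (distance 0.17), Zfp429 (0.27), Dusp7 (0.30), Plxnb2 (0.30), Wfdc17 (0.33), Itgam (0.34), Gm25313 (0.34), Gm26782 (0.34), Atp8b4 (0.35) and Osm (0.37), against a median distance of 1.32. Mgst2, a glutathione S-transferase of leukotriene synthesis, had 155, 58, 147 and 144 counts. Dusp7, a phosphatase of MAP kinases, had 557, 318, 581 and 702. Itgam, the integrin chain CD11b, had 321, 140, 304 and 450. All were lowest in LPS ΔleftPAL, which the distance selects.

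Itgam is also in the list of myeloid markers, and its log2 ratio between the genotypes after LPS was 1.48. Emr1, a macrophage marker, had 197 counts in LPS ΔleftPAL and 117 in LPS ΔIRIS (-0.80). Lyz2 and Csf1r were high at rest but had only 35 and 14 counts and 8 and 5 counts in the LPS libraries. Between LPS ΔleftPAL and LPS ΔIRIS, B cell markers summed to 2659 and 2694 CPM, plasma cell markers to 942 and 709, T cell markers to 18.2 and 17.2, NK cell markers to 0.074 and 0.068 and dendritic cell markers to 46.1 and 36.5. Within the B cell sum, Cr2, the complement receptor CD21, was lower in LPS ΔIRIS (179.4 against 85.8 CPM, log2 ratio -1.06), as was Fcer2a (-0.41), whereas Ms4a1 was higher (0.29). Erythroid markers were higher in LPS ΔIRIS, 58.2 against 123.7 CPM. The part of these differences in the Apobec3 values was not tested.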

How the data were processed

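Total RNA from CD43-depleted splenocytes was sequenced as stranded, rRNA-depleted paired reads of 150 bases. The authors aligned reads with STAR 2.4.0a to mm10/GRCm38 and deposited raw counts per gene from featureCounts (Subread 1.4.6-p1, Ensembl release 77), by gene name, with strand used and primary alignments of multiply mapping reads kept. They also deposited estimated counts and TPM per transcript from kallisto 0.42.3, whose index and settings are not given in the sources used here. Tools and versions are from the submitters' processing notes and the study's methods.

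Counts on named genes (23615496 to 29776108 per library) were scaled with TMM factors (edgeR 4.0.16, R 4.3.3). A row naming no gene held 0.00876% to 0.0264% of the counts and was left out. Genes averaging 50 counts or more were compared by log2(CPM + 0.5), with no p-value, since each group had 1 library, and at least 2-fold apart is the call used. Intervals for Apobec3, Cbx6 and Cbx7 are of the counts, without the 0.5. Estimated counts were summed over transcripts and scaled with TMM factors of their own. Sums over whole genes, which gave these factors, were rounded to whole counts, and sums over groups of transcripts were not. Scripts were tested on simulated data. Other settings tried were scaling to total counts, by upper quartile factors, by DESeq2 (1.42.0) and by TMM leaving out immunoglobulin and mitochondrial genes, other filters and priors, and the kallisto tables. Those without the retained intron transcript or ENSMUST00000175714 were added after seeing the data. Apobec3 and all lists were chosen with earlier results of these data known. Genes named in the text are Apobec3, list members at least 2-fold apart in a comparison or 1.5-fold apart between the genotypes both at rest and after LPS, 4 set genes (Apobec1, Irf7, Samhd1 and Bst2), the adjoining neighbours and those at least 1.5-fold apart between the genotypes, and the 10 genes most like Apobec3, immunoglobulin segments left out. Serinc3 was at least 2-fold apart within ΔleftPAL, and marker genes, Smug1 and Mbd4 were named after their values were seen. Exons and shared sequence came from GENCODE M21 and promoters from RefSeq (GRCm38.p6). Some listed genes are not reported here and were left out of the lists.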

Additional observations from a re-analysis of the deposited data

Results flagged for a closer look

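Among 92 genes, those named here and the cell type markers, 12 (13.0%) had LPS over rest ratios of opposite sign in the genotypes by TMM-scaled gene counts, with both counting intervals clear of 0, from 1 library each. Of 11163 compared genes with counts in every library 2.76% did so, and the 92 were partly chosen for being apart between these libraries, so nothing is read from the count. The difference between the responses was not tested. For Apobec3 it was 1.34 on the log2 scale (ΔIRIS minus ΔleftPAL), with -1.27 in ΔleftPAL and 0.069 in ΔIRIS, a value whose sign turned with the scaling. Oas1a had the widest difference, 1.97 (-1.72 and 0.25). The interferon-induced genes Zbp1 and Ifi47 differed by 1.22 (-0.74 and 0.48) and 0.95 (-0.63 and 0.32), and Bst2 by 0.97 (-0.36 and 0.61). The neighbours Cbx6 and Tab1 differed by 1.16 (-0.69 and 0.47) and 0.92 (-0.45 and 0.47). Itgam and Dusp7, which were found by likeness to Apobec3, differed by 1.89 (-1.34 and 0.55) and 1.21 (-0.95 and 0.26). Apobec1 differed the other way, by -0.37 (0.17 and -0.20), as did the plasma cell markers Irf4, by -1.31 (0.69 and -0.62), and Sdc1, by -0.93 (0.50 and -0.44). These ratios are of the counts without the added 0.5. Irf4 had 6959, 12348, 17554 and 11495 counts, so that its resting libraries differed too (1.08 from CPM + 0.5). The plasma cell markers Prdm1 and Xbp1 were higher after LPS in both genotypes. From CPM + 0.5 their log2 ratios in ΔleftPAL and ΔIRIS were 3.9 and 2.5 for Prdm1 and 2.6 and 2.0 for Xbp1.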

How the results depend on the processing

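No paired analysis was possible because each group had 1 library, and leaving out a library was not possible for the same reason. The higher Apobec3 level of ΔIRIS after LPS, its lower resting level and its lower level after LPS in ΔleftPAL kept their direction under every alternative run. The kallisto tables moved the sizes. By estimated counts the log2 ratios were -0.071 at rest, 0.63 after LPS, -0.37 in ΔleftPAL and 0.33 in ΔIRIS, with a difference of 0.70, and by TPM -0.068, 0.26, -0.39 and -0.064, with 0.33. Without the retained intron transcript the estimated counts gave -1.07 in ΔleftPAL and 0.32 in ΔIRIS, and TPM gave 1.05 after LPS, -0.054 in ΔIRIS and a difference of 1.23. In ΔleftPAL total counts gave -1.37 and upper quartile factors -1.46. The ratio in ΔIRIS turned to -0.090 with upper quartile factors and turned with both TPM sums, so no direction is given for it. The cause was not tested, beyond the transcript left out.

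Genes at least 2-fold apart at rest numbered 322, and 182 with a mean of at least 200 counts, 486 with no filter and 128 with 5 CPM added. After LPS they numbered 223, and 128 with at least 200 counts and 83 with 5 CPM added. The share at least as far apart as Apobec3 after LPS was 1.28%, and 0.835% with no filter, 0.594% with 5 CPM added and 5.67% by estimated counts. In ΔleftPAL it was 25.6%, and 15.3%, 16.8% and 72.4%. The log2 ratio of the transcripts with exon 5 after LPS, -0.46, turned to 0.48 by estimated counts and 0.40 by TPM without ENSMUST00000175714. Depth limits single transcripts of under 100 estimated counts most.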

Other observations

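Of 6 genes of uracil and abasic site repair, which act on DNA after deamination, 3 were at least 2-fold higher after LPS in each genotype. Of all genes 20.1% were higher in ΔleftPAL and 21.6% in ΔIRIS. None of the 6 was at least 2-fold lower after LPS, where 15.5% and 17.3% of all genes were. Ung, the uracil glycosylase, had 165, 714, 305 and 762 counts, in the order of the report. Tdg, a thymine and uracil glycosylase, had 347, 854, 577 and 1291, and Apex1, which cuts abasic sites, had 765, 2859, 991 and 3487. The glycosylase Smug1 had 132, 95, 114 and 109 counts, with log2 ratios of LPS over rest of -0.55 in ΔleftPAL and -0.068 in ΔIRIS, and Mbd4, another glycosylase, had 709, 755, 645 and 875. None of the 6 was at least 2-fold apart between the genotypes, where 1.98% of all genes were after LPS and 2.85% at rest, and their median log2 ratio was 0.082 after LPS and -0.087 at rest.

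Of 4 receptors of murine leukaemia viruses, none was at least 2-fold apart between the genotypes either, with medians of 0.027 after LPS and 0.16 at rest. At the shares over all genes given above, 0 of 4 is no result about the receptors. Slc7a1, the amino acid transporter that ecotropic viruses use, had 991, 2471, 1320 and 2633 counts.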
